A study of Mus musculus with 16 samples.

Results

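Vegfa and 8 genes that mark the cells lining blood vessels were followed through mouse white adipose tissue with and without Sirt1 on 2 diets. The 8 endothelial genes were Kdr, Tek, Pecam1, Cdh5, Flt1, Tie1, Vwf and Emcn. The members were the probe sets that the array's probe table assigns to 1 of these 9 symbols and to no other gene, which gave 14 of 45037 probe sets. Of these, 6 genes had 1 probe set, Cdh5 and Vegfa had 2 each and Flt1 had 4. Where a gene had several, the brightest stood for it in the tests of genes, and all 9 genes were among the 12078 of 18193 genes that were bright enough to test.

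The tissue came from C57BL6/J mice and was profiled on 16 Affymetrix arrays, 4 in each group. Knockout mice on the high fat diet and knockout mice on the low fat diet carried FABP4-Cre, in which the promoter of fatty acid binding protein 4 drives a Cre recombinase, and are labelled as lacking Sirt1 in adipocytes. Wild-type mice on the high fat diet and wild-type mice on the low fat diet carried no Cre transgene. Feeding began at 4 weeks of age and lasted 8 weeks in all 4 groups, so that mice were 12 weeks old at collection. Sirt1 encodes an NAD-dependent protein deacetylase. The FABP4 promoter is known to act in adipocytes, and activity in macrophages and capillary endothelium has also been described in mice, so the arrays do not show which cells lost Sirt1. No group had the transgene together with intact Sirt1, and comparisons of genotypes therefore include the transgene. The labels name neither the fat depot nor separate mice behind the replicates, so the p-values speak of sample-to-sample spread, which may be technical.

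Blood vessels grow and persist in fat under the control of a few secreted factors and the receptors that endothelial cells carry for them. VEGF-A, the product of Vegfa, is released by adipocytes and other cells when oxygen or nutrients call for more vessels, and it acts on the receptor tyrosine kinases VEGFR2 (Kdr) and VEGFR1 (Flt1). A second receptor system, TIE2 (Tek) with its relative TIE1 (Tie1), responds to angiopoietins and governs the stability of vessels. Pecam1 (CD31) and Cdh5 (VE-cadherin) hold endothelial cells together, Emcn encodes endomucin, a sialoglycoprotein of capillary and venous endothelium, and Vwf encodes von Willebrand factor, the clotting protein stored by endothelial cells and platelets.

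The bases just before the start of transcription are shown for the 4 genes whose signal fell with diet in knockout fat. They come from RefSeq on the mouse build GRCm38, which held such a window for 6 of the 9 genes. Each is 250 bases long, runs 5′ to 3′ on the gene's own strand and ends at the last base before the listed start. Capitals mark matches, none of them overlapping, to short motifs that were searched on both strands, namely ACGTG and GCGTG (cores of hypoxia response elements), CGGAAG and AGGAAG (cores bound by ETS factors) and TATAAA.
Vegfa: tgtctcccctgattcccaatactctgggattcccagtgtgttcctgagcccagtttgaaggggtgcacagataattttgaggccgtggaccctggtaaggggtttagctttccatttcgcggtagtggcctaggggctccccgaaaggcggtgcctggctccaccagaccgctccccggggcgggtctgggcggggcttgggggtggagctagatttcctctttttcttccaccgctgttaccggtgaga
Kdr: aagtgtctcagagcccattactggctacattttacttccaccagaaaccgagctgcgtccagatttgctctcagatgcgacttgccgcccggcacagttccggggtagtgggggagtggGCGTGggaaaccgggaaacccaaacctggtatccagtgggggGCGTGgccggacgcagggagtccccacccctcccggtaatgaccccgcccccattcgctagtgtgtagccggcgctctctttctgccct
Flt1: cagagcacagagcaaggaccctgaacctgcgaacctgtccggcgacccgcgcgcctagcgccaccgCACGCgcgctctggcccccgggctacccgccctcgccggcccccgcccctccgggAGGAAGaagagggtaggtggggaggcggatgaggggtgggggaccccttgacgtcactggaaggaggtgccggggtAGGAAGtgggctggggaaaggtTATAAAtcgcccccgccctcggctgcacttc
Emcn: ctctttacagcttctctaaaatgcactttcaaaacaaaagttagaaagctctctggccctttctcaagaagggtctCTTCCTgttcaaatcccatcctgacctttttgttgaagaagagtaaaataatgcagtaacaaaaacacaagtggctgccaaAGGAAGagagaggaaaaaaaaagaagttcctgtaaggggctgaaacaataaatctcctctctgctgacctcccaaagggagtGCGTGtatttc
The Vegfa window lies at chr17:46032378-46032627 on the minus strand, and none of these motifs is in it. A second RefSeq start of Vegfa, further down the gene, has 1 ACGTG match and 1 GCGTG match in its own window, which is not shown. That window, at chr17:46025164-46025413, lies wholly inside the gene model that begins at the first start. The Kdr window lies at chr5:75978456-75978705 on the minus strand and holds GCGTG 131 and 89 bases before the start. The Flt1 window lies at chr5:147726012-147726261 on the minus strand, with GCGTG in reverse at 184 bases, AGGAAG at 129 and 53 bases and TATAAA at 31 bases before the start. The Emcn window lies at chr3:137340828-137341077 on the plus strand, with AGGAAG at 174 bases (in reverse) and 93 bases and GCGTG at 11 bases before the start. For Kdr, Flt1 and Emcn the longest RefSeq gene model begins upstream of the listed start. Such matches are common, since GCGTG was in 28.2%, AGGAAG in 29.5%, ACGTG in 16.6%, CGGAAG in 13.6% and TATAAA in 12.4% of 32851 windows of this length.

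The groups are called high fat knockouts, high fat wild types, low fat knockouts and low fat wild types, and a change with diet is that of high fat relative to low fat tissue of 1 genotype. Signals are log2 values, on which a difference of 1 is a 2-fold change, and they are compared between groups within a probe set and not between genes. The median of all probe sets lay between 4.34 and 4.46 across arrays, and arrays of 1 group correlated with r of 0.987 to 0.996. Sirt1 itself was read by 1 probe set whose place relative to the deletion is not given, and its signal cannot check the genotypes. It was 8.74 ± 0.30 in high fat knockouts and 8.97 ± 0.14 in high fat wild types, and 9.24 ± 0.22 in low fat knockouts and 9.43 ± 0.35 in low fat wild types (SD, n = 4 each), with no difference between genotypes that passed (limma adjusted p = 0.448 and 0.498). Transcripts of all 8 endothelial markers were measured in every array, at 6.54 or more. The list of adipocyte genes averaged 12.0 to 12.7, whereas the 7 measured platelet genes averaged 4.08 to 4.61 and the 2 measured erythrocyte genes 3.63 to 4.57. Of the 16 arrays, 5 carried transcripts of skeletal muscle, taken as Tnnt3 (fast muscle troponin T) at 8 or more: 1 of the knockout high fat, 1 of the wild-type high fat, 1 of the knockout low fat and 2 of the wild-type low fat arrays. The other 11 were not free of them, as Tnnt3 read 7.95 in wild-type high fat replicate 4 and 7.37 in knockout low fat replicate 1. A single array stood apart for the members, as knockout high fat replicate 1 had the lowest signal of the 16 for 6 of the 8 endothelial genes.

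Vegfa had its lowest signals in high fat knockouts. Its brightest probe set read 8.65, 9.14, 9.001 and 8.79 in high fat knockouts, against 10.40, 10.05, 10.19 and 9.77 in high fat wild types. Its signal was 10.51, 10.53, 10.63 and 9.99 in low fat knockouts, against 10.78, 11.50, 10.38 and 10.87 in low fat wild types. The 4 knockout high fat arrays lay below all 12 others, and the other 3 groups overlapped in part. The share of all genes in which these 4 lay below the other 12 was not computed, here or for other members. The fall in high fat knockouts relative to high fat wild types was 1.21 on the log2 scale (SE 0.21, adjusted p = 0.00149, limma, adjusted over the 12078 genes by Benjamini and Hochberg), which is 0.432 of the wild-type level. Of all genes tested, 1.21% had a lower fold change in that comparison.

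With diet the Vegfa signal fell by 1.52 in knockout fat (SE 0.21, limma adjusted p = 7.01e-05), or to 0.348 of the low fat level, and 1.05% of genes had a lower fold change. It also fell in wild-type fat, by 0.78 (SE 0.21, limma adjusted p = 0.00942), although 1 wild-type high fat array reached the lowest of the low fat arrays. On the low fat diet the difference between knockout and wild-type fat was -0.47 (95% confidence interval -0.92 to -0.02, limma adjusted p = 0.135) and did not pass the threshold of 0.05. The effect of diet in knockout fat minus that in wild-type fat, the interaction, was -0.74 (SE 0.30, limma adjusted p = 0.113) and did not pass either. The 3 falls of Vegfa that passed were kept in the 28 other settings, which include leaving out any 1 array.

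The dimmer Vegfa probe set gave the same sign for diet and for genotype, but a different size for genotype on the low fat diet. It read 6.09, 5.66, 5.56 and 5.98 in high fat knockouts, against 6.78, 6.86, 6.83 and 6.21 in high fat wild types. Among low fat arrays, knockouts read 7.13, 7.18, 6.62 and 6.69 and wild types 8.41, 8.43, 8.19 and 8.01. The low fat groups did not overlap, and knockout arrays lay wholly below wild-type ones on that diet in 8.18% of all probe sets. In a fit of all 25560 probe sets bright enough to test, it fell by 1.35 in low fat knockouts relative to low fat wild types (SE 0.18, limma adjusted p = 0.000144). On the high fat diet the fall was 0.85 (SE 0.18, limma adjusted p = 0.00624), and it missed the threshold without the 5 arrays with muscle transcripts (0.0502). With diet this probe set fell by 1.08 in knockout fat (limma adjusted p = 0.000399) and by 1.59 in wild-type fat (limma adjusted p = 1.23e-05). Its interaction was 0.51 (SE 0.26, limma adjusted p = 0.216), opposite in sign to that of the brighter probe set, and neither passed. The 2 probe sets can report different transcript ends or splice forms of Vegfa, and the sources used here do not say which transcripts they read.

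**Figure D1:**
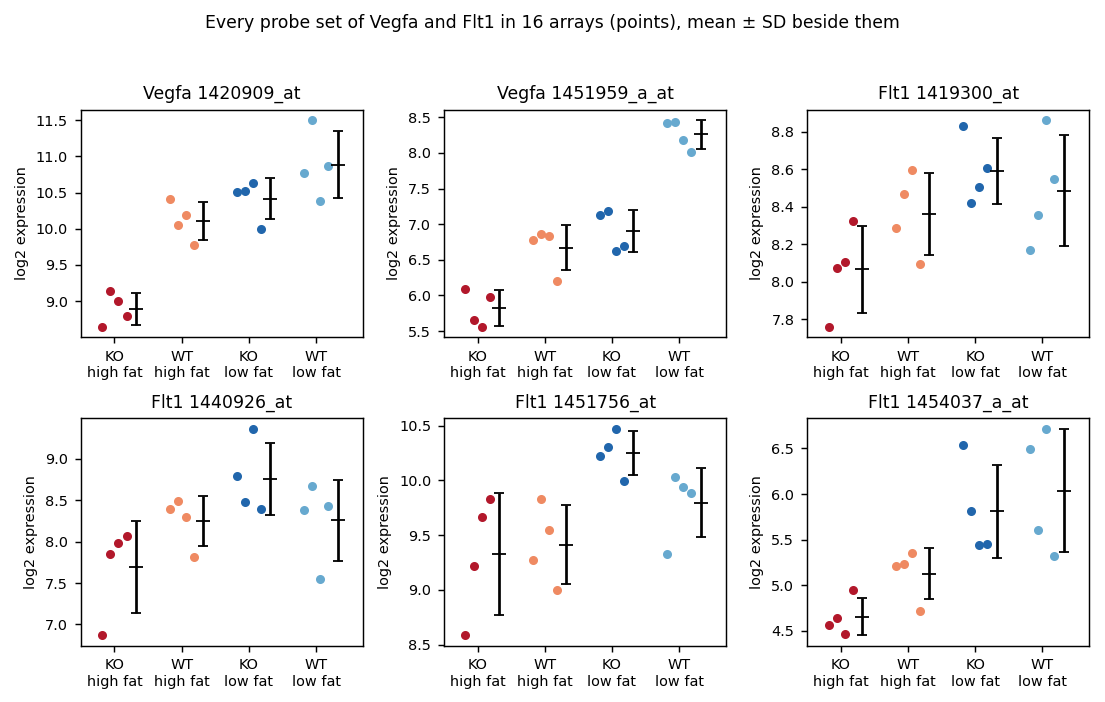
Log2 signal of the 2 probe sets of Vegfa and the 4 of Flt1 on the vertical axes, for the 4 groups on the horizontal axes. Points are single arrays, and bars beside them show the mean ± SD of 4 arrays. The knockout high fat points of the brighter Vegfa probe set lie below all others, whereas the dimmer one sets wild-type low fat arrays, at 8.01 to 8.43, above all others.

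Kdr, the main signalling receptor for VEGF-A, was the endothelial gene with the largest fall in high fat knockouts. It read 7.62, 8.11, 7.84 and 8.41 in high fat knockouts, against 9.03, 9.13, 9.12 and 8.99 in high fat wild types. Low fat knockouts read 9.15, 8.94, 8.83 and 8.88, against 9.32, 9.05, 9.71 and 9.66 in low fat wild types. The knockout high fat arrays again lay below the other 12. The fall relative to high fat wild types was 1.07 (SE 0.17, limma adjusted p = 0.000702), or 0.475 of the wild-type level, and 1.81% of genes had a lower fold change. Kdr also fell with diet by 0.96 in knockout fat (SE 0.17, limma adjusted p = 0.000511). Both calls were kept in the 28 other settings.

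In the remaining comparisons Kdr did not pass, at -0.48 in low fat knockouts relative to low fat wild types (95% interval -0.84 to -0.13, limma adjusted p = 0.0552) and -0.37 with diet in wild-type fat (95% interval -0.72 to -0.01, limma adjusted p = 0.0999). The first of these passed in 7 of the 28 other settings, among them without wild-type low fat replicate 2 (limma adjusted p = 0.0151), knockout high fat replicate 1 (0.0389) or knockout high fat replicate 4 (0.0381). Its interaction was -0.59 (SE 0.24, limma adjusted p = 0.111). The deviations of Kdr from its group means correlated with those of the skeletal muscle list at r = 0.58 over the 16 arrays, and without the 5 arrays with muscle transcripts Kdr still passed in high fat knockouts relative to high fat wild types and with diet in knockout fat. Tissue arrays cannot tell fewer endothelial cells from less RNA of a gene per cell, here or for the genes that follow.

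Flt1 encodes the other VEGF receptor, which binds VEGF-A tightly and, in its soluble form, holds it back from Kdr. Its brightest probe set read 8.59, 9.22, 9.67 and 9.83 in high fat knockouts, against 9.28, 9.83, 9.55 and 8.99 in high fat wild types. Its signal was 10.23, 10.30, 10.47 and 9.99 in low fat knockouts, against 9.33, 10.03, 9.94 and 9.88 in low fat wild types. The pattern differed from that of Kdr in that the 2 high fat groups overlapped throughout. Flt1 fell with diet by 0.92 in knockout fat (SE 0.25, limma adjusted p = 0.0102) without overlap. All 4 Flt1 probe sets fell in that comparison, with fold changes of -1.15 to -0.53 (limma adjusted p = 0.00746 to 0.026 over probe sets). High fat arrays lay wholly below low fat ones in each, as in 15.8% of all probe sets. The call for the one at -0.53 was lost without knockout low fat replicate 1 (limma adjusted p = 0.0827) or knockout high fat replicate 1 (0.0904).

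In wild-type fat the change of the brightest Flt1 probe set with diet was -0.38 (limma adjusted p = 0.242). The dimmest one fell there by 0.91 (SE 0.29, limma adjusted p = 0.0229), with overlapping groups, and lost its call without wild-type low fat replicate 1 (0.0743) or 3 (0.0809) or wild-type high fat replicate 4 (0.0717). Between genotypes no Flt1 probe set passed on either diet. On the high fat diet their differences ran from -0.56 to -0.09, and on the low fat diet the brightest differed by 0.45 (95% interval -0.07 to 0.97, limma adjusted p = 0.216).

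Tek and Tie1 are the receptors of the angiopoietin system. Tek read 9.20, 9.95, 9.92 and 9.95 in high fat knockouts, against 10.21, 10.32, 10.46 and 10.16 in high fat wild types. Among low fat arrays, knockouts read 9.96, 10.13, 10.23 and 9.97 and wild types 10.20, 9.96, 10.41 and 10.24. Tek was thus lower in the 4 knockout high fat arrays than in the other 12, with 1 array far below the rest. The gap to the low fat arrays was very small, from 9.949 in the highest of the 4 to 9.956 in the lowest low fat array. The fall relative to high fat wild types was 0.53 (SE 0.16, limma adjusted p = 0.0337). Without knockout high fat replicate 1 it was -0.35 (limma adjusted p = 0.0961), and the call was also lost without wild-type high fat replicate 1, 2 or 3 (0.056, 0.0672 and 0.1). With diet, Tek differed by -0.32 in knockout fat (limma adjusted p = 0.147) without overlap and by 0.09 in wild-type fat (0.703).

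Tie1, by contrast, was called in no comparison. It read 7.15, 7.19, 6.91 and 7.58 in high fat knockouts, against 7.37, 7.32, 7.23 and 7.17 in high fat wild types. Low fat knockouts read 7.04, 7.04, 7.05 and 7.01, against 7.15, 6.65, 7.49 and 6.88 in low fat wild types. The largest difference was 0.23 with diet in wild-type fat (limma adjusted p = 0.281). On the high fat diet knockout and wild-type fat differed by -0.07, with a 95% interval of -0.41 to 0.28.

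Pecam1 and Cdh5, the junction proteins, both fell in high fat knockouts relative to high fat wild types. Pecam1 read 6.75, 7.68, 7.41 and 7.58 in high fat knockouts, against 7.78, 8.28, 8.13 and 7.77 in high fat wild types. Its signal was 7.52, 7.67, 7.62 and 7.46 in low fat knockouts, against 7.34, 7.20, 7.52 and 7.88 in low fat wild types. The wild-type high fat group was the one that stood higher, since the knockout high fat arrays overlapped both low fat groups, although 1 wild-type low fat array (7.88) lay within it. The fall was 0.63 (SE 0.19, limma adjusted p = 0.0379), without overlap. It lost its call without knockout high fat replicate 1 (-0.43, limma adjusted p = 0.127) or 3 (0.0668) or wild-type high fat replicate 2 (0.102) or 3 (0.0998). With diet, Pecam1 differed by 0.50 in wild-type fat (95% interval 0.09 to 0.92, limma adjusted p = 0.0547) and by -0.21 in knockout fat (0.45).

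Cdh5 read 6.54, 7.40, 7.17 and 7.67 in high fat knockouts, against 7.56, 8.00, 8.37 and 8.06 in high fat wild types. Among low fat arrays, knockouts read 7.21, 7.39, 7.64 and 7.16 and wild types 7.05, 7.76, 6.61 and 7.55. As with Pecam1, the wild-type high fat arrays were the high ones, though 1 of them lay within the range of each other group. Cdh5 fell by 0.81 in high fat knockouts relative to high fat wild types (SE 0.26, limma adjusted p = 0.0484), just under the threshold, and the call was lost in 15 of the 28 other settings. Without any 1 array the adjusted p was between 0.0279 and 0.172, the highest without knockout high fat replicate 1. The gene rose by 0.76 with diet in wild-type fat (SE 0.26, limma adjusted p = 0.0332), which no longer passed without wild-type low fat replicate 1 (0.0837) or 3 (0.112) or wild-type high fat replicate 2 (0.0635), 3 (0.1) or 4 (0.0659). Without the 5 arrays with muscle transcripts the rise was 0.47 (limma adjusted p = 0.283), and it also missed the threshold with only the groups compared (0.0587) and with median centring (0.0509). Its second probe set, at 3.06 to 4.37, was too dim to test.

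Emcn followed the pattern of Flt1 with diet. It read 8.61, 9.49, 9.30 and 9.44 in high fat knockouts, against 9.74, 10.04, 9.76 and 9.57 in high fat wild types. Low fat knockouts read 10.07, 10.06, 10.29 and 9.72, against 9.27, 9.71, 10.20 and 10.06 in low fat wild types. Emcn fell with diet by 0.82 in knockout fat (SE 0.22, limma adjusted p = 0.00934), and the call was kept in the 28 other settings. In wild-type fat its difference with diet was -0.03 (limma adjusted p = 0.933). In high fat knockouts relative to high fat wild types it differed by -0.57 without overlap (95% interval -1.03 to -0.11, limma adjusted p = 0.0886), which did not pass.

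Vwf rose with diet in wild-type fat, where its high fat arrays lay wholly above the low fat ones, as in 17.7% of all genes. It read 9.63, 9.57, 9.30 and 9.34 in high fat knockouts, against 10.07, 9.68, 9.86 and 9.66 in high fat wild types. Its signal was 9.41, 9.62, 9.45 and 9.61 in low fat knockouts, against 9.34, 8.91, 9.65 and 9.25 in low fat wild types. The rise with diet in wild-type fat was 0.53 (SE 0.15, limma adjusted p = 0.0105), and the call was kept without any 1 array. In knockout fat the difference with diet was -0.06 (95% interval -0.37 to 0.25, limma adjusted p = 0.786). On the high fat diet knockout fat differed from wild-type fat by -0.36 (limma adjusted p = 0.113) without overlap. Platelets also hold this protein, and 1 of the 8 listed platelet genes was bright enough to test. That gene, Pf4, was not called, at 0.43 with diet in wild-type fat (unadjusted p = 0.0338, limma adjusted p = 0.082) and 0.46 with diet in knockout fat (unadjusted p = 0.0259, limma adjusted p = 0.0764).

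**Figure D2:**
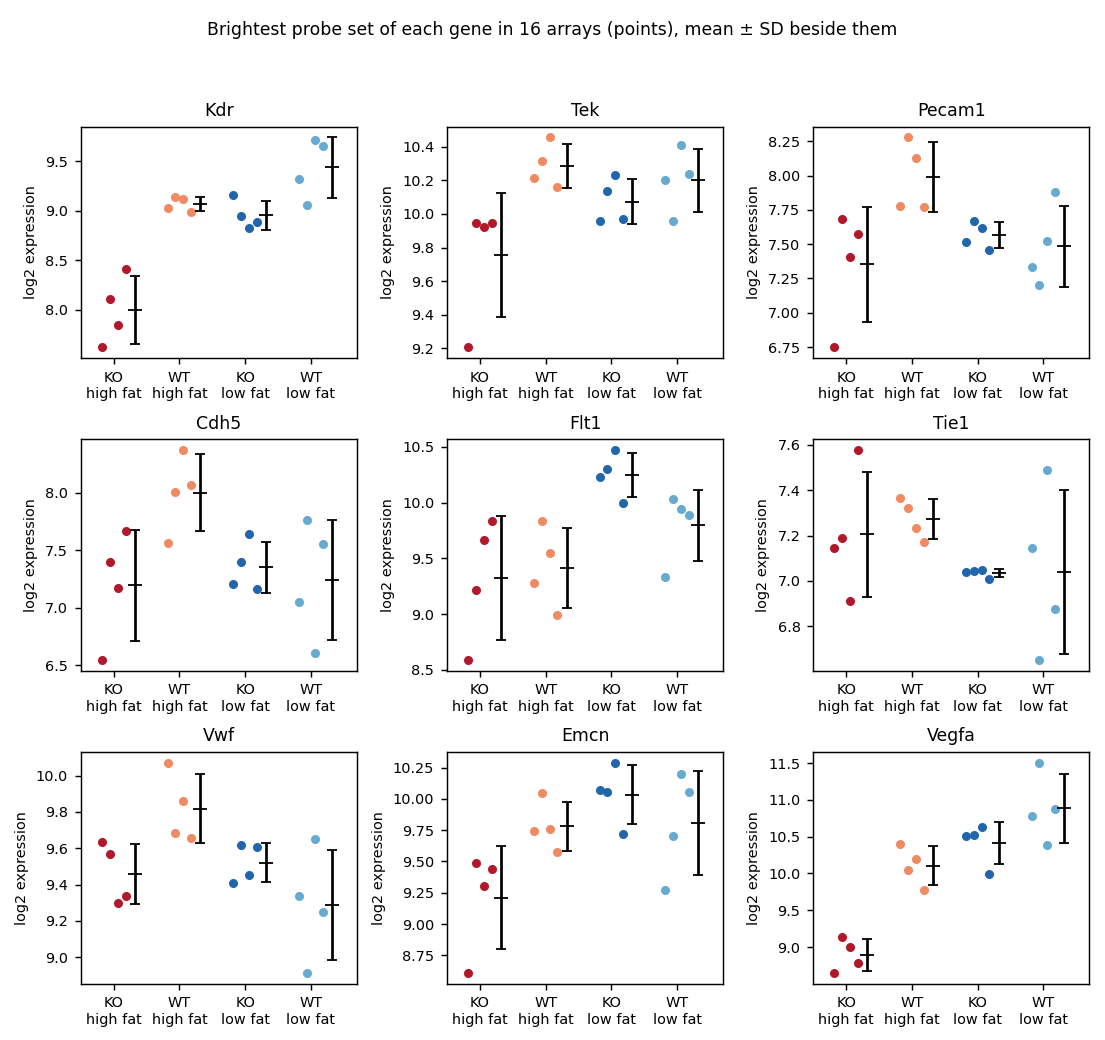
Log2 signal of the brightest probe set of each of the 9 genes on the vertical axes, for the 4 groups on the horizontal axes. Points are single arrays, and bars beside them show the mean ± SD of 4 arrays. In Kdr, Tek and Vegfa the 4 knockout high fat points lie below the other 12, in Tek only just (9.949 against 9.956). The share of all genes with that pattern was not computed. The groups of Tie1 overlap, and 1 knockout high fat array is lowest in 6 of the 8 endothelial panels.

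By comparison, 5 of the 9 genes fell and 0 rose in high fat knockouts relative to high fat wild types, where 6.47% of all genes fell and 8.58% rose. Those 5 were Kdr, Tek, Pecam1, Cdh5 and Vegfa. In 6 of the 9 the knockout arrays lay wholly below the wild-type ones, as did 11.5% of all genes. The median difference was -0.57 over the 9 genes and 0.0026 over all genes. The count of 5 rested in part on single arrays, since it was 2 (Kdr and Vegfa) without knockout high fat replicate 1, without wild-type high fat replicate 2 or 3, or without the 5 arrays with muscle transcripts, and 3 without knockout high fat replicate 3. Calls over all genes also dropped without the 5 arrays with muscle transcripts, from 1818 to 779. Of the 13 probe sets bright enough to test, 5 fell and 0 rose, where 5.21% of all probe sets fell and 7.25% rose, and these included both of Vegfa and not that of Cdh5 (limma adjusted p = 0.053).

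With diet in knockout fat, 4 of the 9 genes fell (Kdr, Flt1, Emcn and Vegfa) and 0 rose, where 13.5% of all genes fell and 15.6% rose. The high fat arrays lay wholly below the low fat ones in 5 of the 9, as in 15.5% of all genes, and the median was -0.32 over the 9 genes against -0.0175 over all genes. The count of 4 did not change without any 1 array or without the 5 arrays with muscle transcripts. Of the 13 probe sets 8 fell and 0 rose, where 13.7% of all probe sets fell and 13.9% rose. Those 8 were all of Flt1, both of Vegfa and the ones of Kdr and Emcn, so they add no gene to the 4.

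With diet in wild-type fat, Cdh5 and Vwf rose and Vegfa fell, where 20.5% of all genes rose and 15.2% fell. The median was 0.0858 over the 9 genes and 0.0387 over all genes. Of the 13 probe sets, 2 rose and 3 fell, where 16.7% and 18.7% of all probe sets did. In low fat knockouts relative to low fat wild types, limma called none of the 9 genes, with 2 at an unadjusted p under 0.05, where 18.9% of all genes were called. Over probe sets 1 of 13 fell, the dimmer one of Vegfa, and 0 rose, where 9.12% of all probe sets fell and 8.95% rose. The interaction was called for none of the 9 genes, with 6 at an unadjusted p under 0.05, where 13.0% of all genes were called. All 9 interaction estimates, from the brightest probe sets, were negative, from -0.91 for Cdh5 to -0.06 for Tie1, with adjusted p of 0.0714 to 0.884. For Vegfa the sign depended on the probe set, as the dimmer one had 0.51. With its probe sets averaged Vegfa had -0.12 and was not called. A difference between genotypes in the effect of diet is thus not shown for any single member. These comparisons share groups of arrays and are not independent of each other.

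**Figure D3:**
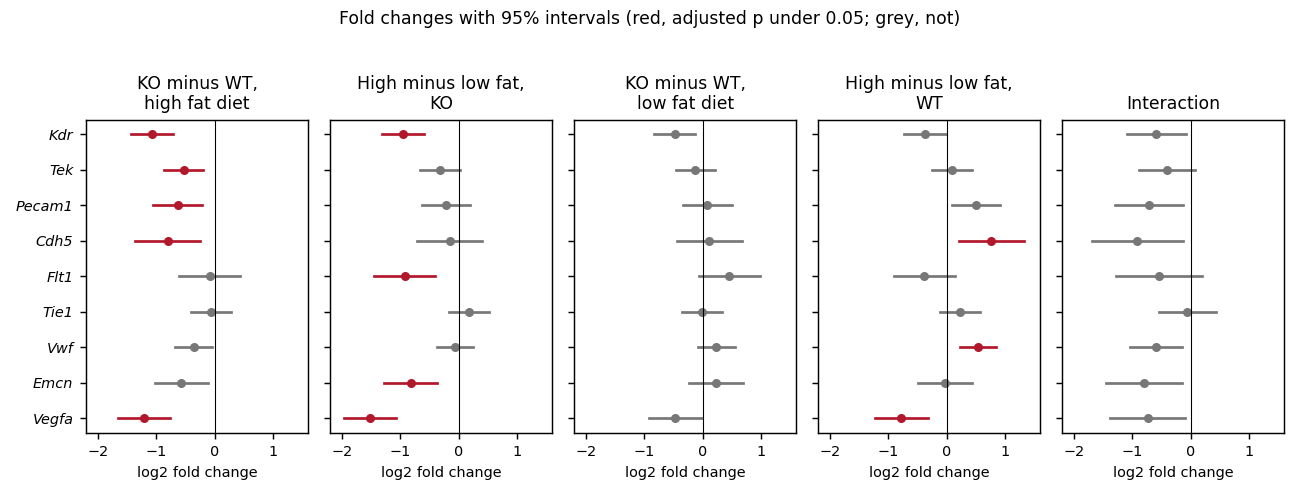
Log2 fold change of the 9 genes on the horizontal axes, with 95% confidence intervals from limma, in 4 comparisons and the interaction. Red marks an adjusted p under 0.05. Intervals of Kdr and Vegfa lie well below 0 in high fat knockouts relative to high fat wild types and with diet in knockout fat, whereas no interaction is red and each of its 9 estimates lies below 0. Only the brightest probe set of each gene is drawn, and the dimmer one of Vegfa had an interaction of 0.51.

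Array by array, some members varied together within groups and others did not. Deviations from the group means over the 16 arrays correlated with r from 0.46 to 0.82 in the 10 pairs among Kdr, Tek, Pecam1, Flt1 and Emcn, a set picked after the values were seen. Over all 28 pairs of endothelial genes r ran from -0.72, for Cdh5 with Vwf, to 0.82, with a median of 0.42 and 23 pairs above 0. Tie1 and Vwf went together at r = 0.60. Vegfa correlated with the 8 endothelial genes at r from -0.52 to 0.53, with a median of 0.06. With the mean of the 8 standardized markers Vegfa had r = 0.44 over the values themselves and -0.0106 over deviations from group means. All of these share the same 16 arrays and their hybridizations, and knockout high fat replicate 1 contributes low values to most of them.

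**Figure D4:**
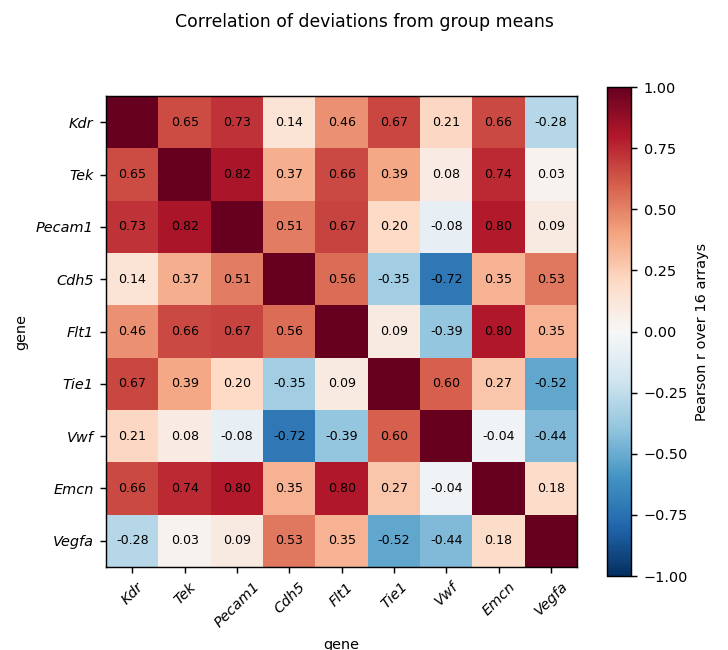
Pearson correlation between the 9 genes of their deviations from the group means over 16 arrays, from -1 (blue) to 1 (red). Kdr, Tek, Pecam1, Flt1 and Emcn form the red block, with r of 0.46 to 0.82, while Vegfa is near 0 with several of them and Cdh5 is at -0.72 with Vwf.

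The deviations also moved with other cell types of the tissue. The mean of the 8 markers correlated with the adipocyte list at r = 0.59 and with the muscle list at 0.41. The first of these leans on knockout high fat replicate 1, the lowest of the 16 arrays in both, with a standardized marker mean of -1.70 and an adipocyte list mean of 12.03. Correlations without that array were not computed. The mesothelial list correlated with the 9 members at r from -0.66 for Vwf and -0.65 for Tie1 to 0.46 for Vegfa and 0.54 for Cdh5. The genes whose signal was most like that of Vegfa over the 16 arrays were Grb10 (r = 0.967), an adaptor of insulin and growth factor receptors, Sema5a (0.962), a transmembrane semaphorin, Abhd3 (0.960), a phospholipase, Dhtkd1 (0.957), a mitochondrial enzyme of lysine breakdown, and Dennd5b (0.953). For Sema5a the means were 7.44 in high fat knockouts, 8.49 in high fat wild types, 9.16 in low fat knockouts and 9.38 in low fat wild types. Those most like the mean of the 8 markers were Icam2 (0.856), an adhesion molecule of endothelium, She (0.843), Unc45b (0.834), a myosin chaperone of muscle, Ptprb (0.832), the endothelial phosphatase VE-PTP, and Cxxc4 (0.830).

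Other genes of the same pathways were read from lists and not picked for how they moved, although the lists were drawn up with earlier results of these arrays known. Of the other VEGF ligands and receptors, 7 were tested, with medians of 0.01 in high fat knockouts relative to high fat wild types and 0.63 with diet in wild-type fat. In high fat knockouts relative to high fat wild types 1 rose, Pgf, which encodes placental growth factor, a ligand of VEGFR1 (0.55, limma adjusted p = 0.0409), and 0 fell. Of all genes 8.58% rose and 6.47% fell there. Pgf also rose in low fat knockouts relative to low fat wild types (0.90, limma adjusted p = 0.00199) and with diet in wild-type fat (0.76, 0.00276). Both of these sizes rest on low fat wild types at 3.97 to 4.32, a dim signal close to the filter at 4. With diet in knockout fat Vegfc, the lymphatic growth factor, rose by 1.08 (limma adjusted p = 0.0041), and Flt4, its receptor VEGFR3, fell by 0.72 (0.0392). With diet in wild-type fat Flt4 rose by 0.77 (limma adjusted p = 0.025) and Vegfb fell by 0.50 (0.0215). The co-receptor gene Nrp2 rose with diet in knockout fat (0.43, limma adjusted p = 0.0113) and in wild-type fat (0.89, 4.05e-05).

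Of 6 tested genes of angiopoietin signalling, Angpt2 rose in each of the 4 comparisons. It encodes angiopoietin-2, a context-dependent antagonist of TIE2 that loosens vessels. The rise was 0.87 in high fat knockouts relative to high fat wild types (SE 0.17, limma adjusted p = 0.00295) and 1.24 with diet in knockout fat (5.31e-05). It was 0.80 in low fat knockouts relative to low fat wild types (0.00402) and 1.17 with diet in wild-type fat (8.18e-05). The low fat wild types, the reference of both, lay below means of 5.04 in low fat knockouts and 5.41 in high fat wild types. Both of these sizes thus rest on a dim signal not far above the filter at 4. Angpt1, the TIE2 agonist, fell with diet in wild-type fat by 0.67 (limma adjusted p = 0.00944). Ptprb, whose product restrains TIE2, fell in high fat knockouts relative to high fat wild types by 0.52 (0.0237) and with diet in knockout fat by 0.55 (0.00969).

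Of 17 tested genes of Notch, apelin and sprouting, 0 rose and 5 fell in high fat knockouts relative to high fat wild types, while 8 rose and 1 fell with diet in wild-type fat. Over all genes 8.58% rose and 6.47% fell in the first, and 20.5% rose and 15.2% fell in the other. The list medians were -0.42 and 0.60 in these comparisons. Nrarp, a Notch target of sprouting vessels, fell by 0.96 in the first (limma adjusted p = 0.0122) and rose by 2.29 in the other (4.8e-06). Both counts include Esm1, a marker of endothelial tip cells, which passed the filter at a log2 of 4 only through the high fat wild types. It read 2.893 to 3.795 in high fat knockouts, 4.02 to 5.10 in high fat wild types, 2.93 to 3.93 in low fat knockouts and 1.68 to 2.97 in low fat wild types, so its fold changes are not given. Notch1 fell by 0.82 in high fat knockouts relative to high fat wild types (limma adjusted p = 0.000696) and by 0.95 with diet in knockout fat (5e-05). Of 19 endothelial transcription factors, 0 rose and 4 fell in high fat knockouts relative to high fat wild types, among them Sox7 by 1.21 (limma adjusted p = 0.00355) and Meox2 by 0.82 (0.00814). With diet 2 rose and 3 fell in knockout fat, and 4 rose and 1 fell in wild-type fat. The shares of all genes with diet in knockout fat were 15.6% risen and 13.5% fallen.

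Of 29 other endothelial genes, 0 rose and 8 fell in high fat knockouts relative to high fat wild types, with a median of -0.35, where 8.58% of all genes rose and 6.47% fell. Tm4sf1, a surface protein of endothelium, fell by 0.82 (limma adjusted p = 0.00104) and Robo4, a receptor that stabilizes vessels, by 0.63 (0.00853). With diet in knockout fat 3 rose and 8 fell, where 15.6% of all genes rose and 13.5% fell. Among the fallen was Podxl, the sialomucin podocalyxin, which fell by 1.16 (limma adjusted p = 0.000742). With diet in wild-type fat 9 rose and 4 fell, where 20.5% of all genes rose and 15.2% fell. The tight junction gene Cldn5 rose there by 1.40 (limma adjusted p = 8.22e-06). Among 12 genes of pericytes and smooth muscle, the cells that wrap vessels, 0 rose and 1 fell in high fat knockouts relative to high fat wild types. With diet in wild-type fat 4 rose and 0 fell, including the pericyte gene Rgs5 (0.58, limma adjusted p = 0.000727). Between the high fat groups limma called none of 7 lymphatic genes (2 at an unadjusted p under 0.05, median -0.52) and none of 7 adhesion molecules of activated endothelium (3 at an unadjusted p under 0.05, median -0.40). Selp, which encodes P-selectin, rose with diet in wild-type fat by 1.08 (limma adjusted p = 2.83e-05).

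Counted once each, these 8 lists held 100 tested genes beside the 9 members. In high fat knockouts relative to high fat wild types 3 rose and 17 fell, where 8.58% of all genes rose and 6.47% fell. With diet in knockout fat 11 rose and 19 fell, where 15.6% of all genes rose and 13.5% fell. In low fat knockouts relative to low fat wild types 18 rose and 1 fell, where 11.7% of all genes rose and 7.24% fell. With diet in wild-type fat 36 rose and 8 fell, where 20.5% of all genes rose and 15.2% fell. Medians over the 100 were -0.36, -0.15, 0.21 and 0.40 in that order. The interaction was called lower for 18 and higher for 0 of the 100, where 7.87% of all genes were lower and 5.12% higher. Without knockout high fat replicate 1 the first of these counts was 1 risen and 8 fallen, without wild-type high fat replicate 3 it was 1 and 11, and without the 5 arrays with muscle transcripts it was 1 and 10. Without those 5 arrays the counts were 12 and 9 with diet in knockout fat, 9 and 0 in low fat knockouts relative to low fat wild types, 27 and 2 with diet in wild-type fat, and 1 and 7 for the interaction. Calls over all genes also dropped without them, from 1818 to 779 between the high fat groups. They went from 3523 to 2295 with diet in knockout fat and from 2284 to 830 between the low fat groups. With diet in wild-type fat they went from 4304 to 2538, and for the interaction from 1569 to 412. With all arrays, the 17 fallen, the 36 risen and the 18 lower interactions include Esm1. That gene was tested only through its signal in high fat wild types.

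**Figure D5:**
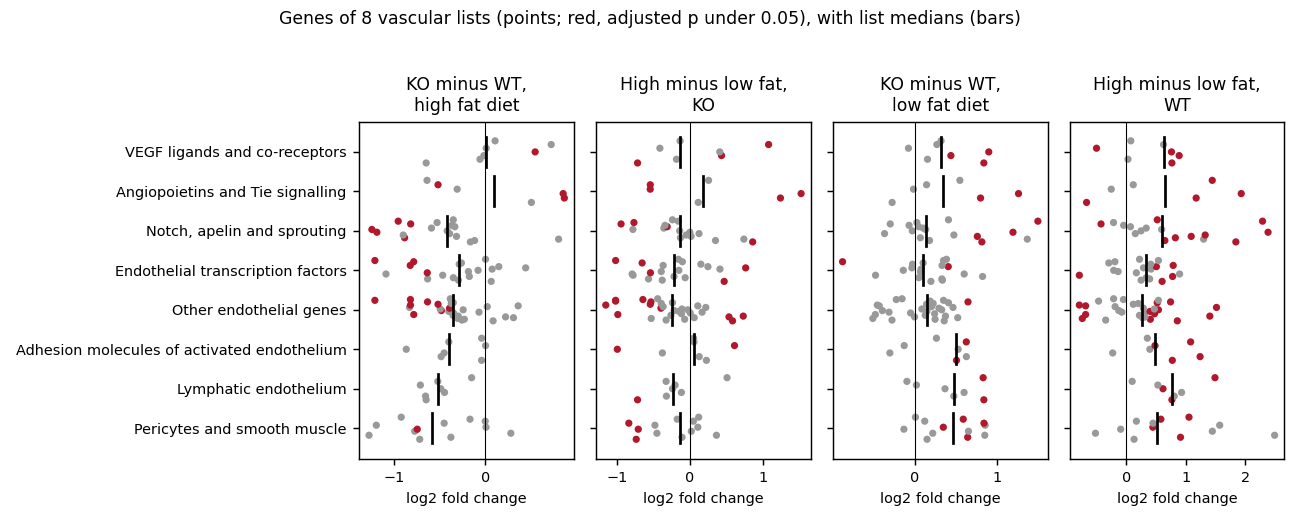
Log2 fold change of each tested gene of 8 vascular lists on the horizontal axes, in 4 comparisons, with 1 row per list. Points are genes, red where the adjusted p was under 0.05, and black bars are list medians. Most bars lie left of 0 in high fat knockouts relative to high fat wild types, with 3 genes called higher and 17 lower, and right of 0 with diet in wild-type fat, with 36 called higher and 8 lower. Of all genes 8.58% were called higher and 6.47% lower in the first, and 20.5% and 15.2% in the other. The 17 and the 36 include Esm1, which was tested only through its signal in high fat wild types.

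Genes of the hypoxia response, which includes Vegfa as a known target, did not move one way. Of 26 tested, 2 rose and 2 fell in high fat knockouts relative to high fat wild types, where 8.58% of all genes rose and 6.47% fell. Pfkfb4, a regulator of glycolysis, rose by 1.67 (limma adjusted p = 3.11e-05), while Ndrg1 fell by 0.81 (0.001) and Pfkfb3 by 0.47 (0.0353). The other gene counted as risen was Car9, a carbonic anhydrase, which passed the filter only through the high fat knockouts, at 4.90 to 5.27 there and at 3.13 to 3.97 in high fat wild types. With diet 2 rose and 6 fell in knockout fat, and 5 rose and 6 fell in wild-type fat, where Egln3, an oxygen-sensing prolyl hydroxylase, fell by 2.35 (limma adjusted p = 0.000162). Of all genes 15.6% rose and 13.5% fell with diet in knockout fat, and 20.5% and 15.2% did in wild-type fat. Of 15 other angiogenic factors limma called none in high fat knockouts relative to high fat wild types (3 at an unadjusted p under 0.05, median -0.013), and of 12 inhibitors of angiogenesis 0 rose and 2 fell (median -0.40).

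Markers of other cells moved in the same comparisons as the members, and their part in the results was not tested. In high fat knockouts relative to high fat wild types all 7 mesothelial genes fell, with a median of -1.52, and 6 of 10 macrophage genes rose, with a median of 0.91. Of all genes 8.58% rose and 6.47% fell there. The mean of the mesothelial list lay at 6.64 to 7.93 in knockout arrays and at 8.49 to 9.38 in wild-type arrays on the high fat diet, and that of the macrophage list at 11.0 to 11.2 and at 9.61 to 10.4 in the same groups. With diet in knockout fat all 7 mesothelial genes fell and 6 of 10 macrophage genes rose, and with diet in wild-type fat none of the 7 was called by limma (1 at an unadjusted p under 0.05), and of the 10 macrophage genes 6 rose and 1 fell. Over all genes 15.6% rose and 13.5% fell with diet in knockout fat, and 20.5% and 15.2% did in wild-type fat. Adipocyte genes were less changed, with 0 of 9 risen and 1 fallen in high fat knockouts relative to high fat wild types, and with list means of 12.0 to 12.4 in knockout and 12.4 to 12.6 in wild-type arrays. Of 6 genes of brown and beige fat all fell with diet in knockout fat and 5 fell in wild-type fat, and limma called none in high fat knockouts relative to high fat wild types (1 at an unadjusted p under 0.05). None of the 10 muscle genes was called by limma between genotypes on either diet (1 on each at an unadjusted p under 0.05), and their mean ran from 5.37 to 8.16 in knockout and from 5.30 to 8.52 in wild-type arrays on the high fat diet.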

How the data were processed

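White adipose tissue RNA of 16 samples in 4 groups was measured on Affymetrix mouse arrays. The authors deposited log2 expression values per probe set, and per the submitters' processing notes GCRMA 2.20.0 made them under R 2.11.1. The sources used here give neither filters nor batch handling. GCRMA models background from probe sequence and places arrays on a common distribution, which can compress or exaggerate changes of dim probe sets. The probe table gave 1 symbol to 34945 of 45037 probe sets, several to 932 and none to 9160.

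A gene was read from its brightest probe set with 1 symbol and tested where 4 or more arrays read 4 or higher on the log2 scale, which left out 6115 genes. With limma 3.58.1 (R 4.3.3), 1 model holding a mean for each group was fitted to all arrays; its moderated tests were two-sided (residual degrees of freedom 12, prior 3.84), p was adjusted by Benjamini and Hochberg over all genes tested, and the threshold was 0.05. The same fit was run on every probe set. The script was tested on simulated data. Groups came from the labels, and the number of arrays limits the precision. The members, the 18 gene lists and the tests were chosen with earlier results of these data known. Of 240 list entries 227 were matched by symbol and 210 tested. Genes named were all members, up to 4 genes per list and comparison with the smallest p among those past the threshold, not all of which are printed, the 5 genes most correlated with Vegfa and the 5 with the mean of the markers, and Sirt1. Same-numbered replicates were not treated as pairs. The 24 pairs of equal number had r between -0.321 and 0.199 for departures from group means, and 5 were over 0.1. With groups of 4 arrays such values cannot exclude shared handling. Alternatives changed the filter, the floor, the arrays fitted, the variance model, the scaling, the probe sets and the threshold. Sequences are from RefSeq.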

Additional observations from a re-analysis of the deposited data

Results flagged for a closer look

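In 3 of 56 groups of 4 arrays, 1 array lay so far from the other 3 that the gap took a share of the group's range above Dixon's 95% critical value. Chance flags about 1 group in 20. Tek read 9.20 in knockout high fat replicate 1, against 9.92 to 9.95 in the other 3 knockout high fat arrays. The dimmer Cdh5 probe set, too dim to test, read 3.12 in knockout low fat replicate 4. The dimmer Vegfa probe set read 6.21 in wild-type high fat replicate 4, against 6.78 to 6.86 in the other 3.

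Among the genes of the lists of angiogenesis and vessel cells, up to 4 per list with the smallest p are given here, 30 in all, for which the effect of the high fat diet in knockout fat differed from that in wild-type fat by the interaction test (limma, Benjamini-Hochberg adjusted p under 0.05 over all genes). The values are the log2 effect of diet in knockout minus wild-type fat, and negative values mean a lower effect in knockout fat. No member was among them. Of growth factor and Tie genes there were Flt4 (-1.49), Svep1 (-1.19), Ptprb (-0.66) and Ang (-0.62). Of Notch and sprouting genes there were Nrarp (-2.45), Esm1 (-2.38), Dll4 (-1.08), Aplnr (-0.98) and Sema3c (-1.14). Of endothelial and lymphatic genes and transcription factors there were Robo4 (-1.28), Mmrn2 (-0.69), Sox7 (-1.56), Meox2 (-1.16), Selp (-1.03), Ackr3 (-1.11), Thy1 (-0.98) and Pdpn (-0.86). Of pericyte and smooth muscle genes there were Rgs5 (-0.76), Notch3 (-1.29) and Acta2 (-1.02). Of hypoxia genes there were Car12 (-1.83), Car9 (1.27), Ndrg1 (-0.77) and Pdk1 (0.64). Of other factors and inhibitors there were Lep (-1.15), Ccn2 (-1.33), Ccn1 (-1.42), Timp3 (-0.67), Col18a1 (-1.03) and Cxcl10 (-1.27). Pdk1 and Car9 were the 2 with a positive value, Car9 with the limit that follows. Esm1 reached a log2 of 4 in no array outside the high fat wild types and Car9 in none outside the high fat knockouts. Those 2 passed the filter only through these groups, so their flags are not independent of the filter. No size is given for them. Car12 lay below 4 in all low fat wild types, so its size rests in part on signals under the filter.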

How the results depend on the processing

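Each member value was recomputed under 28 other settings, which gave 1251 values. Of these 1164 kept their direction and side of the threshold, 40 lost a call, 26 gained one and 21 turned sign, none of the last from a called value. The number of members called without any 1 array was 2 to 4 with diet in wild-type fat (3 otherwise), 4 to 4 with diet in knockout fat, 0 to 1 in low fat knockouts relative to wild types (0), 2 to 5 in high fat knockouts (5) and 0 to 2 for the interaction (0). In high fat knockouts relative to wild types the count was 3 with only the groups compared in the fit, 2 without the 5 arrays with muscle transcripts (chosen after the data were seen) and 2 at a threshold of 0.01, at which the count with diet in wild-type fat was 1. On the low fat diet it was 1 with array weights, median centring or quantile normalization and 2 with probe sets of a gene averaged, and for the interaction it was 2 with array weights. In high fat knockouts relative to wild types array weights added Vwf (-0.42, limma adjusted p = 0.00643) and Emcn (-0.48, 0.0206). They took no member call away there, and calls over all genes rose from 1818 to 3424. Over every probe set the counts were 5 with diet in wild-type fat, 8 with diet in knockout fat and 1 in low fat knockouts relative to wild types, where 1 probe set per gene gave 3, 4 and 0. With array weights the sign turned for Pecam1 (-0.029) and Tie1 (0.037) between genotypes on the low fat diet and Flt1 (0.068) on the high fat diet. Without the arrays with muscle transcripts it turned for Emcn (0.30) and a Flt1 probe set (0.020) with diet in wild-type fat, Vwf with diet in knockout fat (0.011), and Cdh5 (-0.069) and Tie1 (0.13) between genotypes on the low fat diet. Without any 1 array, values that spanned 0 were, between genotypes on the low fat diet, Tie1 (-0.14 to 0.14), Pecam1 (-0.016 to 0.21), Cdh5 (-0.10 to 0.28) and the dimmest Flt1 probe set (-0.47 to 0.0025). On the high fat diet they were Flt1 (-0.26 to 0.16) and Tie1 (-0.19 to 0.032). With diet they were Cdh5 in knockout fat (-0.31 to 0.062) and, in wild-type fat, Emcn (-0.21 to 0.10) and 2 Flt1 probe sets (-0.25 to 0.14 and -0.23 to 0.0031), and for the interaction Tie1 (-0.21 to 0.070). The correlation of Vegfa with the mean of the markers, 0.44, was -0.0106 over deviations from group means. The dimmer Vegfa probe set lost its call in high fat knockouts relative to wild types once arrays with muscle transcripts were left out (adjusted p = 0.0502). With its probe sets averaged, Vegfa fell between genotypes on the low fat diet by 0.91 (adjusted p = 0.000907).

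The replicate number as a block gave 4, 4, 0, 5 and 0 members called with diet in wild-type fat, with diet in knockout fat, in low fat and in high fat knockouts relative to wild types, and for the interaction. It added a call for Pecam1 with diet in wild-type fat (adjusted p = 0.0482) and changed no other member call. The main fit did not treat the numbers as pairs. Counts over all genes were 4304, 3523, 2284, 1818 and 1569 in that order. They were 2733, 2059, 1060, 837 and 576 at a threshold of 0.01 and 2538, 2295, 830, 779 and 412 without the arrays with muscle transcripts. Array weights gave 5354, 3424 and 2481 for diet in knockout fat, high fat knockouts and the interaction, and the groups compared alone gave 1292 for low fat knockouts. The causes were not tested. The settings that leave arrays out also have fewer arrays, and 0.01 is a stricter threshold. Scaling by median or quantile moved the median of all genes by under 0.1 in each comparison. With 4 arrays a group, the least bright probe sets, of Flt1 and Cdh5, are read closest to background.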
